A study of Arabidopsis thaliana with 6 samples.

Results

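The 2 arrays whose sample code ends in H, CLH and CVH, were compared with the 4 arrays whose code ends in L or M. CLH was set against CLL and CLM, and CVH against CVL and CVM, so that each H array was read only against arrays that share the first letters of its code (the start, CL or CV). A probe set, the group of short probes that reports 1 transcript on the array, was described when its H signal lay above both L and M, or below both, in the same direction in both starts. Of the 8247 non-control probe sets, 4425 had a mean signal of at least 20 over the 6 arrays and were analysed, and 1764 genes could be named among them. H lay above both other endings in both starts for 673 probe sets (250 genes) and below both for 593 (233 genes).

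The RNA of all 6 arrays came from rosette leaves, unshaded, of the Arabidopsis thaliana accession Ws-2 without genetic modification at growth stage 3.90. The study concerns how plants acclimate to light intensity, and the arrays are Affymetrix Arabidopsis arrays. The labels do not say what CL, CV, L, M and H stand for, so no light level is assigned to any array. Humidity was 60% for all arrays, while M2 compost, 16 h of dark and 15 °C in the dark are recorded for the L arrays alone. There was 1 array per code, and nothing says that plants were grown, harvested or pooled separately, so the spread between arrays may be technical. In the limma fit that spread also holds any difference between L and M, and between the starts in the change at H. A limma p-value here is read against that mixed spread. In whole leaves, fewer cells of a type and less RNA per cell cannot be told apart.

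Leaves that acclimate to a change in light adjust the antenna and photosystem proteins of the thylakoid membrane, the enzymes of carbon fixation and pigment synthesis, and the peroxidases and thiol enzymes that remove reactive oxygen. Leaf growth, which depends on auxin, on loosening of the cell wall and on the supply of ribosomes, also responds to light. The gene lists below cover these roles and others, and were chosen with earlier results of these data known.

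The labelled tissue could be checked on few markers. RCA, which encodes Rubisco activase, had signals of 9305.3, 10819.5 and 10705.6 on the L, M and H arrays of CL and 7730.6, 9622.6 and 10716.7 on those of CV. The only other one of 14 mesophyll markers present under a name, the antenna gene LHCB4.3, ran in opposite directions, with 1103.1, 514.6 and 247.5 in CL and 632.0, 1316.0 and 1875.5 in CV. The summed signal of both ran from 10953.1 to 12592.2 on the H arrays and from 8362.6 to 11334.1 on the L and M arrays. Of the markers of other leaf cells and organs, only the guard cell gene GC1, the anther gene A9 (mean under 20) and the senescence gene SAG29 were present, and markers of trichomes, vessels, seeds and roots were not analysed here. GC1 ran in opposite directions: it was 369.8 in CLH against 359.6 and 343 in CLL and CLM, and 74.1 in CVH against 320.5 and 140.5 in CVL and CVM. SAG29 was highest in CVH, at 118.9 against 15.0 and 46.2 in CVL and CVM, while CLH (33.4) lay between CLL (26.1) and CLM (40.4).

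The H arrays differed from the others in a measure of RNA quality. Because labelling started at the poly(A) tail with an oligo-dT primer, per the labels' protocols, a high ratio of 3' to 5' signal for a control transcript means that its 5' end was less represented. For the GAPDH control this ratio was 3.76, 2.81 and 6.22 in CL and 3.20, 3.39 and 5.50 in CV. Here and below, the 3 values of a start stand in the order L, M, H. Both H arrays were therefore above all 4 others, by 1.79-fold on average. A two-sided exact permutation test within starts gave p = 0.111, the smallest that its 9 arrangements can give. The 5' signal was lower at H in both starts, at 630.4, 558.9 and 218.5 in CL and 562.8, 563.7 and 407.9 in CV. The 3' signal at H lay below both others in CL (1358.0 against 1572.2 and 2367.3) and above both in CV (2241.8 against 1803.3 and 1913.0). The ubiquitin control did not share the pattern. Its ratio was 2.69, 2.43 and 3.18 in CL and 2.51, 3.12 and 2.31 in CV (log2 difference 0.02, two-sided exact permutation p = 1). Among the other control signals, BioB (middle and 3') and BioC (5' and 3') lay above both L and M at H in both starts. Their log2 differences were 0.32 to 0.38. BioB 5', BioDn and CreX did not lie beyond in this way. Scanner background from the labels was 64.52 and 68.77 on the H arrays, inside the range of 56.06 to 73.52 on the others. The part of these control differences in any result below was not tested, apart from the fit with the GAPDH ratio as a covariate given at the end.

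**Figure D1:**
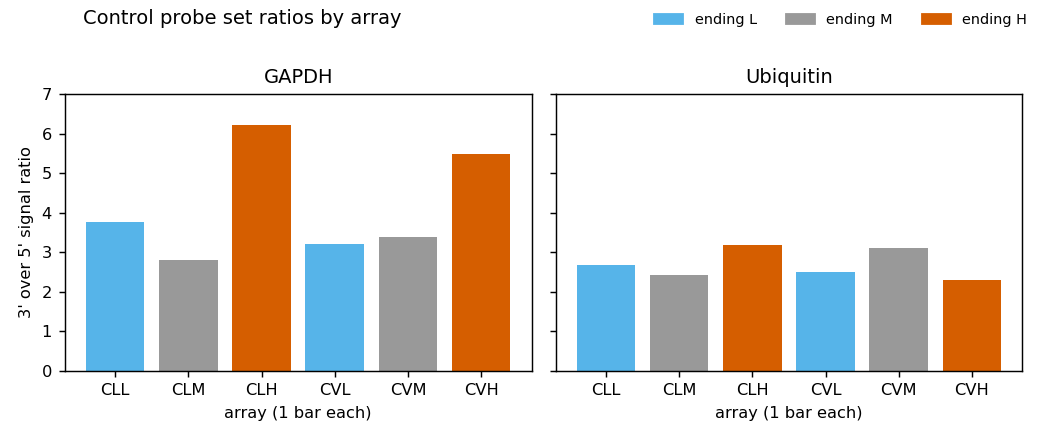
Ratio of 3' to 5' signal (vertical axis, no unit) for the GAPDH and ubiquitin control probe sets on each of the 6 arrays, 1 bar per array, coloured by ending. The GAPDH ratio of CLH (6.22) and CVH (5.50) exceeds that of every L and M array, while the ubiquitin ratio is highest in CLH (3.18) and lowest in CVH (2.31).

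Across the 4425 probe sets, H stood apart from the other 2 endings more often than L or M did. H was above both others in both starts for 15.2% of the probe sets and below both for 13.4%. The same count with L as the outer ending gave 408 above (9.22%) and 343 below (7.75%), and with M 191 above (4.32%) and 362 below (8.18%). These 3 counts come from the same 6 arrays, and their difference was not tested. Within a single start H was often outermost, above both for 28.6% in CL and 47.0% in CV and below both for 43.0% and 29.9%. It lay beyond in the same direction for 1266 probe sets, and in opposite directions for 342 and 832. The contrast between endings was larger for wide gaps, where the gap is the smaller of the 2 starts' distances between H and the nearer of L and M. A gap over 0.5 on the log2 scale was found for 51 probe sets above and 52 below with H outermost, for 6 and 8 with L, and for 5 and 12 with M. A gap over 1 was found for 6 and 4 with H, and for 0 and 1 with L.

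**Figure D2:**
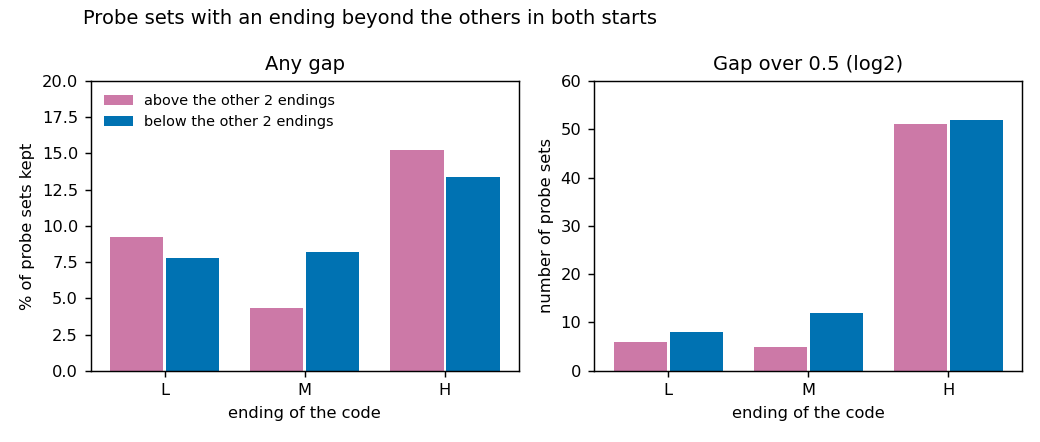
Left, percent of the 4425 probe sets (vertical axis) for which the ending on the horizontal axis lies above or below the other 2 endings in both starts. Right, the number of those with a gap over 0.5 on the log2 scale, where H has 51 above and 52 below and no other ending has more than 12.

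The median gap was 0.15 on the log2 scale in both directions, and the fit had a median standard error of 0.25 for the difference between H and the other endings. With limma (2 arrays against 4, start as a block, 3 residual degrees of freedom) 0 of 4425 probe sets (0%) passed an adjusted p of 0.05 (Benjamini-Hochberg). Without adjustment 410 had a p under 0.05 (9.27%), 196 higher at H (4.43%) and 214 lower (4.84%). Robust empirical Bayes moderation called 2 probe sets, which are described below, and leaving out CLH called 1. No gene named in the following paragraphs passed the test as fitted, so their values are descriptions of 6 arrays.

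The gene with the widest gap above was ARL (ARGOS-LIKE), which promotes organ growth through cell expansion. Its signal was 55.8, 59.4 and 145.2 in CL (L, M and H) and 43.0, 27.5 and 150.6 in CV. The H arrays reached nearly the same level from both starts, more than 2 times that of any other array. The fitted log2 difference was 1.64 (SE 0.26, adjusted p = 0.209 with limma). IAGLU, a glucosyltransferase gene named for the attachment of glucose to the auxin indole-3-acetic acid, had signals of 182.0, 180.8 and 408.0 in CL and 187.9, 196.9 and 426.3 in CV. The 4 L and M arrays lay within a narrow band and the H arrays at about the same higher level (1.14, SE 0.19, adjusted p = 0.250).

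Other genes with wide gaps above included scpl28, a serine carboxypeptidase-like gene, and LOV1, which encodes a resistance-type protein that gives sensitivity to the fungal toxin victorin. The signal of scpl28 was 17.5, 16.8 and 29.0 in CL and 11.8, 13.3 and 35.3 in CV. That of LOV1 was 21.2, 21.3 and 32.7 in the CL arrays and 24.3, 22.4 and 43.5 in the CV arrays. For both genes L and M were close to each other and all levels were near the minimum mean of 20. Among loci without a symbol, AT4G27360 had 18.6, 25.5 and 56.9 in CL and 16.0, 37.1 and 79.9 in CV, with M between L and H in both starts. AT2G15830 had 197.1, 364.8 and 729.1 in CL and 149.8, 85.0 and 323.0 in CV, so that the order of L and M differed between the starts. AT4G22820 had 140.3, 175.0 and 257.7 in CL and 113.8, 123.2 and 319.4 in CV. The remaining genes among the 15 with the widest gaps were AT1G03400, AT2G40110, AT1G14930, AT2G16835, AT2G41190, AT4G01870, AT2G25320 and AT5G26250. Over all 15 the gap ran from 0.53 to 1.24 and the fitted log2 difference from 0.61 to 1.64, with adjusted p between 0.209 and 0.546.

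The gene with the widest gap below was AT2G45670, with signals of 31.3, 35.9 and 8.9 in CL and 41.7, 22.7 and 3.9 in CV. Its CVH signal equals the offset of 3.9 that was added before taking logarithms, so the size of its log2 difference (-1.85, SE 0.35, adjusted p = 0.383) is uncertain. SLY1, the F-box protein that marks DELLA repressors for destruction in gibberellin signalling, had signals of 33.6, 33.0 and 13.0 in CL and 22.7, 26.6 and 10.7 in CV. Both H arrays were below every L and M array (-1.05, SE 0.28, adjusted p = 0.396). EXO (EXORDIUM), which promotes leaf growth downstream of brassinosteroids, had 29.8, 34.7 and 8.6 in CL and 23.6, 22.8 and 13.0 in CV (-1.11, SE 0.32, adjusted p = 0.416). TBL45, of the family that adds acetyl groups to cell wall polysaccharides, had 76.3, 62.4 and 32.7 in CL and 41.4, 48.3 and 24.2 in CV (-0.89, SE 0.22). For these 3 genes, chosen for their wide gaps, the H arrays did not overlap with any other array. Here and below, the share of all genes without such overlap was not counted.

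Ribosomal protein genes were also among the 15 widest gaps below. AT4G01310, of the plastid ribosomal list, had signals of 147.4, 175.1 and 97.0 in CL and 314.9, 278.9 and 130.9 in CV (-0.93, SE 0.22, adjusted p = 0.392). AT4G36130, of the cytosolic large subunit list, had 282.0, 258.9 and 166.3 in CL and 455.0, 460.1 and 308.1 in CV (-0.63, SE 0.19). AT4G30800, of the small subunit list, had 28.4, 17.9 and 5.0 in CL and 27.3, 39.6 and 11.6 in CV (-1.41, SE 0.34). Both H arrays of AT4G01310 and AT4G30800 were below every L and M array, whereas the CVH signal of AT4G36130 was above those of CLL and CLM. The remaining genes were AT4G19110, AT1G60070, AT4G32140, AT2G05790, AT4G32130, AT4G01410, AT2G04360 and AT4G10360. Over all 15 the gap ran from 0.52 to 1.46 and the size of the log2 difference from 0.63 to 1.85, with adjusted p between 0.383 and 0.416.

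**Figure D3:**
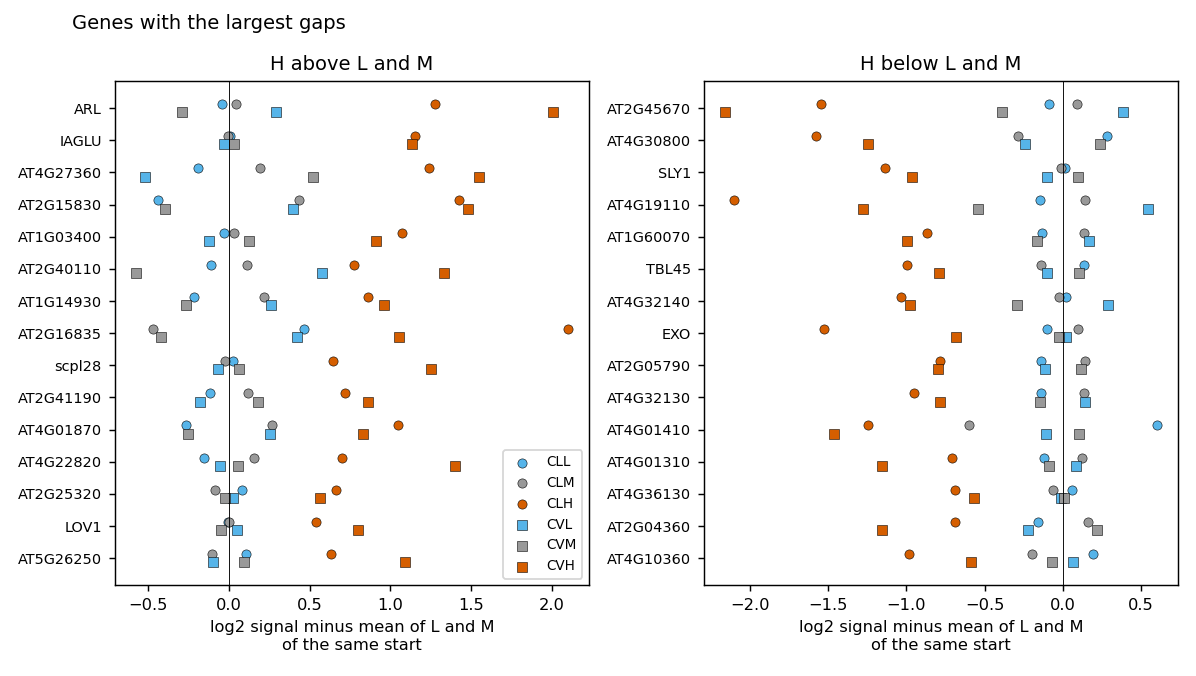
Log2 signal of each array minus the mean of L and M of the same start (horizontal axis) for the 15 genes per direction with the widest gaps, circles for CL and squares for CV, coloured by ending. The H arrays stand on 1 side of their own start's L and M arrays for every gene shown, which is how the genes were chosen; ARL reaches 1.28 in CL and 2.01 in CV.

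The 4425 probe sets include 2571 without a single matched gene, of which 16.0% lay above and 13.3% below. The 2 smallest adjusted p of the whole fit belong to such probe sets. The first had signals of 115.0, 141.4 and 394.0 in CL and 189.8, 194.4 and 673.5 in CV (1.69, SE 0.20, adjusted p = 0.0914). The second had 212.0, 212.2 and 701.4 in CL and 164.9, 199.4 and 507.1 in CV (1.59, SE 0.20, adjusted p = 0.0914). In both, every H array was more than 2 times above every other array. These are the 2 probe sets that robust moderation called (adjusted p = 0.0467 for each). On the lower side, the widest gap among unnamed probe sets was that of a probe set with signals of 187.6, 169.7 and 63.8 in CL and 224.4, 172.6 and 80.8 in CV (-1.34, SE 0.21, adjusted p = 0.209).

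Among the gene lists, 26 had at least 3 measured genes, and over all 1764 genes H was above both endings in both starts for 14.2% and below both for 13.2%. No list member was called, so the counts below describe where H lay. For growth-linked genes, ARL and IAGLU were 2 of the 6 auxin-linked genes measured, and UGT74D1, a glucosyltransferase that acts on auxin metabolites, lay below (27.9, 39.5 and 25.4 in CL and 39.6, 18.4 and 15.0 in CV). The cell wall list had a negative fitted difference for 18 of 23 genes (median -0.27 on the log2 scale), against 881 of 1764 genes overall (49.9%, with 50.1% positive). Against the mean of L and M, 14 of the 23 were lower at H in CL and 15 in CV. Beside these stand 1023 and 707 of all 1764 genes, so in CL the list was close to all genes. In that list 6 genes lay below both endings in both starts and 1 above.

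Besides EXO and TBL45, the cell wall genes below were XTH32 and EXGT-A3, which encode xyloglucan-modifying enzymes, SKU5, a protein of directional growth, and FRA3, a phosphatase needed for fibre cell walls. XTH32 had signals of 150.6, 130.6 and 68.7 in CL and 157.3, 185.3 and 115.6 in CV (-0.77, SE 0.21). Both of its H arrays were below all L and M arrays. EXGT-A3 had 192.6, 203.3 and 136.8 in CL and 240.9, 166.6 and 149.4 in CV, again without overlap. SKU5 had 35.8, 37.6 and 30.2 in CL and 85.2, 39.2 and 30.9 in CV, where CVL stood apart from the other arrays. FRA3 had 29.3, 42.2 and 21.5 in CL and 27.7, 32.3 and 25.4 in CV. The member above was XEG113, an arabinosyltransferase of cell wall extensins, by 0.12 on the log2 scale (SE 0.24), less than its standard error. These cell wall members, other than EXO and TBL45, were named after their values were seen.

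Cytosolic ribosomal protein genes were lower at H in the fit without exception, in 17 of 17 small subunit and 32 of 32 large subunit genes (median log2 difference -0.36 and -0.37), but the starts were unequal. In CV all 17 and all 32 were lower at H than the mean of L and M (medians -0.89 and -0.77), beside 707 of all 1764 genes. In CL 5 of 17 and 17 of 32 were lower (medians 0.11 and -0.02), beside 1023 of all 1764 genes. H was below both endings in both starts for 4 small subunit and 13 large subunit genes, and above both for 0. PGY1, which encodes a large subunit protein with a role in leaf polarity, showed the form of this difference, with 211.5, 229.0 and 167.3 in CL and 450.6, 560.7 and 236.6 in CV. CVH was there close to CLL and CLM, and well below CVL and CVM. AT2G37190 had 87.2, 56.9 and 43.5 in CL and 136.1, 166.7 and 60.0 in CV (-0.96, SE 0.26, adjusted p = 0.396), AT4G10450 46.2, 37.2 and 34.2 in CL and 90.3, 116.1 and 30.0 in CV. Members of these families can share probes with near-identical copies, so single values are uncertain. Without CVH the medians are those of CL, so the fitted difference of both lists rests on that array. The plastid ribosomal list, with 3 genes, had 2 below in both starts, AT4G01310 and AT4G17560 (77.3, 83.9 and 46.5 in CL and 180.8, 144.2 and 114.5 in CV).

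For pigment synthesis, 7 of 7 measured tetrapyrrole and carotenoid genes had a negative fitted difference (median -0.37 on the log2 scale). Of these, 3 lay below both endings in both starts. That median is the value of PORB (SE 0.70), which was higher at H in CL (0.46) and lower in CV (-1.20). LYC (-0.04, SE 0.19) and AT1G74470 (-0.003, SE 0.20) differed little. Against the mean of L and M, 6 of the 7 were lower at H in CL and 5 in CV, beside 1023 and 707 of all 1764 genes. The median was -0.09 without CVL, -0.11 without CLM, -0.23 without CLH and -0.05 with the GAPDH ratio in the fit. HEME2, a uroporphyrinogen decarboxylase of the route to chlorophyll and haem, had signals of 178.2, 187.2 and 138.4 in CL and 329.2, 253.7 and 174.6 in CV (-0.55, SE 0.21). GSA1, which makes the first dedicated precursor of tetrapyrroles, aminolevulinate, had 67.4, 75.5 and 55.8 in CL and 162.8, 162.3 and 109.7 in CV (-0.44, SE 0.19). LIL3:1, a light-harvesting-like protein that holds enzymes of chlorophyll synthesis at the membrane, had 724.5, 776.7 and 501.1 in CL and 948.4, 946.3 and 806.2 in CV (-0.41, SE 0.20). In these 3 genes each H array was the lowest of its start, but CVH was not below the L and M arrays of CL for GSA1 and LIL3:1. Adjusted p were between 0.487 and 0.563.

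The plastid proteins that catch and use light did not move as 1 group. Of 13 photosystem, antenna and thylakoid genes 8 had a higher fitted level at H and 5 a lower one, and H lay above in both starts for 2 and below for 1. The median log2 difference of 0.15 turned to -0.08 after quantile normalization and to -0.01 without CVH. LHB1B2, a major antenna protein of photosystem II, had signals of 4573.1, 5951.8 and 7178.3 in CL and 4924.8, 6675.9 and 7526.2 in CV (0.43, SE 0.20), and its other probe set also had H highest in both starts. On the brighter one L was lowest, M between and H highest in both starts. PAM68, an assembly factor of photosystem II, had 29.7, 29.1 and 35.6 in CL and 33.8, 31.6 and 40.6 in CV, and PSB27, a luminal protein of photosystem II repair, 2186.8, 2896.6 and 1923.5 in CL and 3247.7, 3631.7 and 2900.6 in CV. Of 7 genes of the Calvin cycle and photorespiration 1 lay below, SBPASE, the sedoheptulose-bisphosphatase of the cycle (1248.9, 1260.8 and 990.9 in CL and 1444.1, 1479.7 and 1189.5 in CV).

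Of 15 reactive oxygen and thiol genes, 12 had a negative fitted difference (median -0.17 on the log2 scale), with 4 below in both starts and 1 above; with the GAPDH ratio in the fit the median was 0.08. Both plastid ascorbate peroxidases, which remove hydrogen peroxide beside the photosystems, were among those below. TAPX, the thylakoid-bound form, had signals of 307.8, 336.6 and 221.6 in CL and 417.1, 339.1 and 263.2 in CV, and its other probe set had 313.8, 323.7 and 156.2 in CL and 393.1, 285.6 and 262.0 in CV. The fitted log2 differences of these 2 probe sets were -0.52 (SE 0.20) and -0.68 (SE 0.24). SAPX, the stromal form, had 168.3, 122.7 and 107.8 in CL and 187.3, 282.0 and 158.7 in CV (-0.46, SE 0.25). NTRC, the plastid thioredoxin reductase that reduces 2-Cys peroxiredoxins, had 103.7, 99.7 and 63.3 in CL and 177.3, 135.5 and 127.1 in CV (-0.47, SE 0.22). The others were ty2, a thioredoxin, which lay below (fitted difference -0.24, SE 0.21), and TRXF2, a plastid thioredoxin that activates Calvin cycle enzymes, which lay above (0.32, SE 0.21).

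The cold, drought and abscisic acid list ran the other way in the fit, with 10 of 13 genes higher at H (median log2 difference 0.34). Of these, 3 lay above in both starts and 0 of the 13 below. In each start 9 of the 13 were higher at H, beside 741 of all 1764 genes in CL and 1057 in CV. The list median was 0.32 in CL, beside -0.08 for all genes. In CV it was 0.14, the value without CLH, close to the 0.12 of all genes. The brightest members, KIN2, AT1G54410, COR15B and COR47, did not lie beyond L and M in both starts. They changed by 0.782, 0.211, 0.983 and 0.785 in CL, and by 0.042, 0.070, -0.995 and -0.100 in CV. STZ, a zinc finger repressor induced by many stresses, had signals of 150.6, 104.9 and 219.2 in CL and 48.9, 70.1 and 83.0 in CV, and its other probe set 50.2, 33.2 and 135.7 in CL and 16.3, 23.6 and 28.7 in CV. LEA4-5, a late embryogenesis abundant protein that protects cells from water loss, had 16.6, 32.7 and 33.7 in CL and 5.7, 6.0 and 108.1 in CV. Its fitted difference of 1.99 (SE 0.62) came from CVH, since CLH was within 0.04 of CLM on the log2 scale. DI19, a drought-induced zinc finger protein, had 444.3, 372.6 and 472.8 in CL and 248.2, 212.3 and 339.2 in CV (0.39, SE 0.21).

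Several smaller lists had members beyond L and M in both starts. Of 11 sugar and starch genes 8 had a higher fitted level at H (median 0.23). Beside 1023 of all 1764 genes lower at H in CL, 7 of the 11 were lower there (median -0.22, the value without CVH). Beside 1057 of 1764 higher in CV, 7 of the 11 were higher there (median 0.44). In both starts 3 lay below and 0 above, among them SWEET17, a vacuolar fructose transporter, with 73.3, 38.9 and 34.6 in CL and 86.1, 73.0 and 48.8 in CV, and ATSPS4F, a sucrose-phosphate synthase, with 101.5, 79.8 and 63.0 in CL and 66.6, 63.6 and 52.7 in CV. Of 10 chaperone genes 7 had a negative fitted difference (median -0.15), and 3 lay below and 0 above, among them CRT1b, a calreticulin of the endoplasmic reticulum, with 151.8, 116.3 and 84.5 in CL and 135.7, 132.2 and 104.8 in CV. HIS1-3, a stress-inducible linker histone, lay above with 44.5, 50.7 and 72.9 in CL and 16.0, 14.7 and 32.3 in CV (0.75, SE 0.24). All 6 autophagy genes of the ATG8 family had a higher fitted level at H (median 0.23), but 1 of them, ATG8D, lay above in both starts (124.9, 158.9 and 171.5 in CL and 55, 65.0 and 123.2 in CV). In CL 4 of the 6 were lower at H (median -0.11, the value without CVH), beside 1023 of all 1764 genes. GSTF3, a glutathione transferase on a probe set that may match several members of its family, lay above with 181.3, 352.9 and 398.2 in CL and 42.6, 56.4 and 114.2 in CV, and GSTU18, another, lay below with 176.4, 252.8 and 132.3 in CL and 192.5, 117.2 and 102.8 in CV. The 2 clock-linked genes measured both lay above: CCL had 2119.5, 4616.2 and 5427.6 in CL and 1654.5, 1005.4 and 1974.4 in CV. GI (GIGANTEA), a clock protein that promotes flowering, had 473.8, 608.2 and 979.1 in CL and 556.6, 529.0 and 570.4 in CV, and another of its 3 probe sets lay below, so its direction is uncertain.

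In the remaining lists, most with few genes, H lay above in both starts for 2 of 14 respiratory chain genes, 2 of 10 vacuolar ATPase genes, 2 of 14 genes of the secretory pathway, 2 of 15 glycosyltransferases, 2 of 11 serine carboxypeptidases and vacuolar proteases and 2 of 8 histones, and below for 0, 1, 3, 3, 1 and 0 of them. The lists of tubulin and actin (5 genes), defence (8), translation factors (6), RNA polymerase subunits (5), senescence (3) and proteasome subunits (4) had 1, 1, 1, 0, 1 and 0 genes above and 2, 0, 1, 1, 0 and 0 below. Among these, TUB9, a beta-tubulin, lay above with 365.5, 405.6 and 434.9 in CL and 318.9, 315.8 and 427.5 in CV. VHA-A3, a membrane subunit of the vacuolar proton pump, lay below with 424.0, 457.4 and 350.2 in CL and 491.2, 476.5 and 408.4 in CV. NRPB7, a subunit of RNA polymerase II, lay below with 27.1, 24.8 and 20.9 in CL and 24.4, 42.1 and 6.5 in CV.

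**Figure D4:**
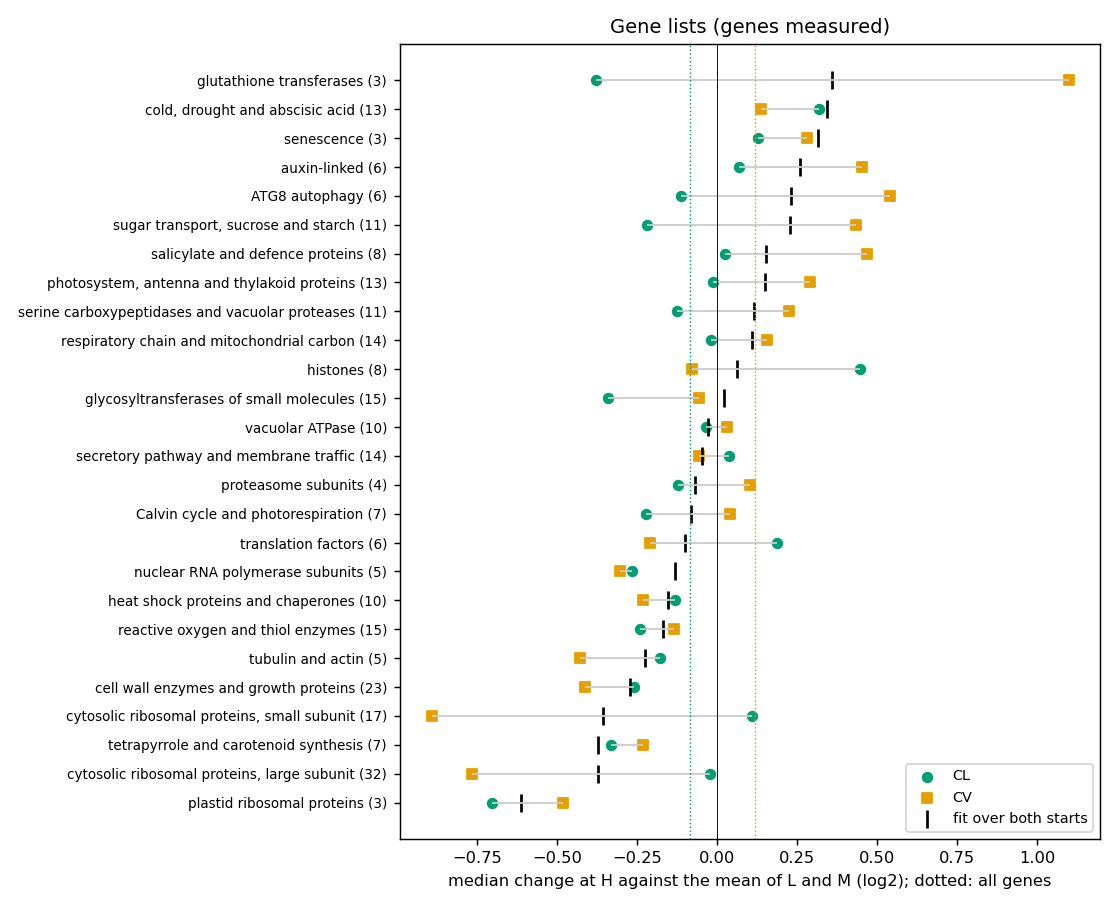
Median log2 change at H against the mean of L and M (horizontal axis) for each list with at least 3 measured genes, with the number of genes in brackets, in CL (circles), in CV (squares) and in the fit over both starts (bars); dotted lines mark all 1764 genes (-0.08 in CL and 0.12 in CV). The 2 cytosolic ribosomal lists lie far below the dotted line in CV (-0.89 and -0.77) and near 0 in CL, and the tetrapyrrole list lies below in both (-0.33 and -0.23).

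More than 1 probe set gave a check within the same arrays for 79 genes. All probe sets of a gene lay above in both starts for 6 genes and below for 3, and for 2 genes (AT1G60200 and GI) probe sets lay in opposite directions. All fitted differences of a gene had 1 sign for 50 of the 79. AIM1, a peroxisomal enzyme of fatty acid beta-oxidation, was among the 6, with signals of 1046.8, 1092.7 and 1606.5 in CL and 963.0, 971.4 and 1395.7 in CV on the brighter probe set. On that probe set both H arrays were above all others, and within each start H exceeded L and M by 0.52 or more on the log2 scale. On the dimmer one this distance was 0.11 or more. The other genes with both probe sets above were AT2G15830, STZ, LHB1B2, AT2G40620 and AT1G14910. Those with both below were TAPX, AT4G24780 and AT2G43590. AT4G24780 had 322.3, 452.8 and 189.2 in CL and 522.8, 282.9 and 196.7 in CV on the probe set with the larger difference (-0.98, SE 0.29). The 2 probe sets of AT2G43590 differed in size, at -0.13 and -2.41, and the larger had signals of 1.5 on both H arrays, under the offset.

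The agreement between the starts at H was limited. Across the 4425 probe sets, which are not independent replicates, the change at H in CL and in CV had Pearson's r of 0.08 and Spearman's rho of 0.08, and 51.1% had the same sign. The same measure was -0.24 (Spearman's rho -0.24, 40.8% of the same sign) for M against the mean of the other endings and -0.23 (Spearman's rho -0.11, 47.5%) for L, and the 3 values share the same 6 arrays. The median change was -0.08 in CL and 0.11 in CV, and H was below both endings for 1903 probe sets and above for 1265 in CL, but below for 1324 and above for 2079 in CV. Besides the 1266 beyond in the same direction, 342 lay above in CL and below in CV, and 832 below in CL and above in CV. The order of L and M was also unlike between the starts: among the 673 above, M exceeded L in both starts for 172 and L exceeded M in both for 138, and the order differed for 363. Among the 593 below these numbers were 78, 157 and 358.

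**Figure D5:**
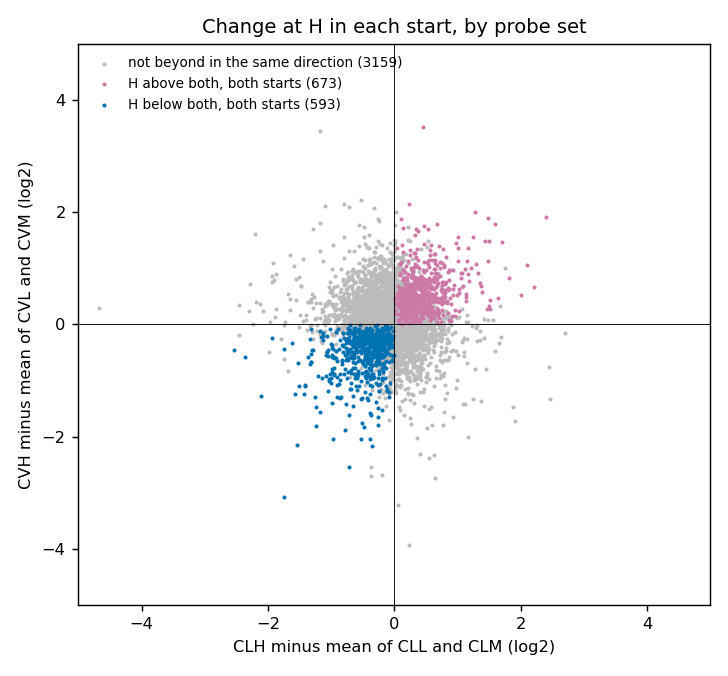
Change at H against the mean of L and M in log2 units in CL (horizontal axis) and in CV (vertical axis), 1 point per probe set (4425). The 673 probe sets with H above both endings in both starts and the 593 below are coloured; the cloud has no clear slope (Pearson's r of 0.08).

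With the log2 GAPDH ratio of each array added to the fit, the ratio and the ending shared most of their variation, and the median standard error went from 0.25 to 0.78. In that fit 525 of the 673 probe sets above and 473 of the 593 below kept the sign of their difference (78.0% and 79.8%), as did 2861 of all 4425 (64.7%). The probe sets above and below, and the 30 genes with the widest gaps, were chosen for their difference at H on these same arrays. No conclusion is drawn from their higher share. Of the 30 genes 29 kept the sign, among them ARL (2.37, SE 0.84), IAGLU (1.09, SE 0.62), SLY1 (-1.06, SE 0.89) and EXO (-0.31, SE 1.00). The difference of EXO was smaller than its standard error. AT2G16835 did not (20.0, 8.6 and 70.2 in CL and 36.5, 18.6 and 58.6 in CV), with -0.28 (SE 1.17) in place of 1.58. STZ turned to -0.55, GSTU18 to 0.57, PSB27 to 0.39, UGT74D1 to 0.35 and FRA3 to 0.54. With 2 residual degrees of freedom this limma fit had 0 calls after adjustment and 214 before it, and the ending and RNA quality cannot be told apart in these arrays.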

How the data were processed

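The deposited values are 1 intensity per probe set and array on a linear scale, scaled by the authors to a common level (2% trimmed mean of 100.2 on each array); array medians ran from 20.0 to 26.1, and no source used here names the software. Arrays were grouped by the ending of the sample code, with the start as a block. The 50 control probe sets and the 3822 with a mean under 20 (highest left out 19.983, lowest kept 20.017) were set aside. The offset of 3.9 understates changes of dim probe sets. Values as log2(value + 3.9) were fitted with limma 3.58.1 in R 4.3.3 (lmFit, eBayes with an intensity trend, Benjamini-Hochberg adjustment over 4425 probe sets). On simulated data of 4425 probe sets the fit for H against L and M called 55 of 60 changed by 2, 30 of 80 changed by 1, and 4 of 4225 unchanged. The simulated noise was independent for each probe set and array, with no set difference between L and M and no RNA quality effect. These counts need not hold for the real arrays. Gene names came from the platform annotation and the TAIR10.1 table; 3794 had 1 gene (3792 matched), 70 several and 4383 none. A gene was represented by its brightest probe set. Genes named are the 15 per direction with the widest gap, of each list those of the 4 members with the largest fitted difference that lay beyond L and M, genes whose probe sets all lay beyond, and the other members beyond of 4 lists (cell wall, pigment synthesis, reactive oxygen, cold), which were added after their values were seen. Members and the 31 lists were chosen with earlier results of these data known; 3 lists had 1 or 2 measured genes and 2 had none. Promoter motifs were not analysed here.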

Additional observations from a re-analysis of the deposited data

Results flagged for a closer look

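The response at H ran in opposite directions in the 2 starts for 342 probe sets, above both L and M in CL and below both in CV, and for 832 in the reverse order. Each side rests on 1 H array, and the difference between the starts was not tested. The genes with the widest such gaps, chosen for this difference, were AT4G36500 and AT2G45710 in the first group and AT2G28200 and CHI in the second. AT4G36500 had signals of 123.8, 126.4 and 283.7 on the L, M and H arrays of CL and 129.1, 113.3 and 27.3 on those of CV (log2 change 1.16 in CL and -2.0 in CV). AT2G45710 changed by 0.93 in CL and -1.65 in CV. AT2G28200 had 19.9, 20.3 and 4.9 in CL and 18.0, 16.5 and 43.3 in CV (-1.45 and 1.16). CHI had 51.0, 64.6 and 23.1 in CL and 15.9, 34.4 and 64.1 in CV (-1.18 and 1.30).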

How the results depend on the processing

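The count of 0 probe sets called by limma stayed at 0 with an offset of 1 or 16, without a filter on the mean or with a mean of at least 50, after quantile normalization, with array medians set equal, with 3 levels, for H against L or M alone, with the GAPDH ratio as a covariate and without the intensity trend. Robust moderation called 2. With 1 array left out it ran from 0 to 1, where the lone H array is assumed to vary like the others; the 1 call, without CLH, was AT4G28780 (-3.93, adjusted p = 0.0299). Without the replicate block (the start) it was 0, with 221 at an unadjusted p under 0.05. The arrays of a start share a replicate number (1 for CL, 2 for CV), which was read from the sample codes alone.

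The count above was 1326 without the filter, where more probe sets were counted, and ran from 673 to 715 under the other offsets and scalings. With 1 array left out it ran from 790 to 2079 above and from 756 to 1903 below; without CLH or CVH 1 start is left, and without CVM the count below was 908. The log2 GAPDH difference of 0.84 was 0.40 for 3' over middle, 0.44 for middle over 5', and 0.021 for ubiquitin.

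Of 99 named values under 17 alternatives, 16 changed sign, each with the GAPDH ratio as a covariate: AT2G16835 (-0.28), PSB27 (0.39), STZ (-0.55 and -0.64), UGT74D1 (0.35), GSTU18 (0.57), AT1G54290 (-0.49), AT1G09640 (0.045), AT4G34450 (0.17), PRA1.B4 (-0.85), YLS5 (-0.49), FRA3 (0.54), XEG113 (-0.47), ty2 (0.52) and AT4G24780 (0.056 and 0.16). The named values were chosen with H beyond both L and M in both starts. Their sign was therefore fixed under the other offsets, with an array left out, and against L or M alone. Of 492 list medians under alternatives 64 moved by more than their spread. Dim signals limit the size of changes near the offset. Promoter motifs were planned and not run.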
